A study of Mus musculus with 4 samples.

Results

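Microfold-like cells are a small population among medullary thymic epithelial cells (mTECs), the thymic stromal cells that show tissue antigens to developing T cells. The population is named after the microfold (M) cells of the gut, which sit over lymphoid follicles and carry particles and microbes from the lumen to the immune cells beneath. In the gut, the cytokine RANKL signals through its receptor RANK and the NF-κB pathway to switch on the transcription factors SPIB and SOX8, and mature M cells then make GP2, the receptor with which they bind bacteria. Immature M cells already express *Marcksl1* and *Tnfaip2*, whereas *Gp2* marks the mature cells. The genes followed here, 6 in number and linked to this programme, were picked by symbol, namely *Gp2*, *Pglyrp1*, *Tnfaip2*, *Marcksl1*, *Aif1* and *Sox8*. All 6 were found among the 23337 genes of the count table, and all 6 were among the 18547 genes that passed the filter on low counts.

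The mTECs were sorted as CD45-EpCAM+UEA-1+Ly51- cells from the thymus of C57BL/6 mice aged 4 weeks and measured by RNA-seq in 4 libraries. Groups of 2 libraries were compared, WT 1 and WT 2 against *Sirt6* cKO 1 and *Sirt6* cKO 2. The first group was wild type, from mice without *Foxn1*-Cre that were littermates or age-matched. The second group carries the genotype *Sirt6*-/- in the sample labels, while the methods describe *Foxn1*-Cre *Sirt6* loxp/loxp mice, in which Cre is driven in thymic epithelial cells. It is written cKO for short, as a label. How many mice were pooled for a library is not given in the sources used here. The methods call the samples of a group independent, and nothing further ties a library to an animal, so that p-values measure the spread between these libraries.

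Each library held between 61102704 and 65907745 counts, over 18608 to 19475 genes with at least 1 count. *Sirt6*, the targeted gene, was counted 622 and 755 times in the WT libraries and 882 and 835 times in the libraries labelled *Sirt6* cKO (log2 fold change 0.37, SE 0.32, adjusted p = 0.80 by edgeR's quasi-likelihood test with Benjamini-Hochberg adjustment). Its level in the second group was thus not below that in WT. Counts over the whole gene do not separate the floxed exons from the rest, so every direction given here rests on the labels. Of the mTEC markers, *Epcam* and *Aire* were abundant in every library, *Epcam* with 798 and 835 TPM (a level scaled for gene length and for the library's total) in WT and 1060 and 1200.5 TPM in cKO, and *Aire* with 395 and 495.5 TPM in WT and 632 and 754 TPM in cKO. In bulk libraries such as these, fewer cells of a type cannot be told apart from less RNA per cell.

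In short, *Gp2* was the member with the clearest difference and stood at about 54.3% of its WT level in the libraries labelled *Sirt6* cKO. *Pglyrp1* was at 56.5% of WT with a wider spread, *Marcksl1* was at 133% of WT, and *Tnfaip2*, *Sox8* and *Aif1* did not differ beyond the spread between libraries. The members did not share a direction, with 4 fold changes below 0 and 2 above 0 and a median log2 fold change of -0.45. Over all genes tested the median was 0.00 and 49.6% of the fold changes were above 0. None of the 6 members passed an adjusted p of 0.05 by edgeR, where 1 gene of 18547 did (0.00539% of the genes tested). At an unadjusted p of 0.05, 1 of the 6 members passed, on the lower side, against 8.58% of all genes tested in either direction and 3.32% on the lower side. In 4 of the 6 members the groups did not overlap in CPM, counts scaled to the size of the library, which was also the case for 41.9% of all genes tested.

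SPIB binds sites around the core GAGGAA, shared with related ETS factors, and the RNA of *Spib* itself was higher in the libraries labelled *Sirt6* cKO. For this reason the RefSeq promoters of the 6 members, from 250 bases before to 50 bases after the transcript start on GRCm38.p6, were searched for GAGGAA on both strands. All 6 members had a promoter entry, and 4 of the 6 (66.7%) held the core, as did 28.3% of 32851 promoters of the same length. The windows of 30 bases around each core are printed on the strand of the gene, 5′ to 3′, with the core or its reverse complement in capitals. They are shown because *Gp2* and *Pglyrp1*, the members with the lowest fold changes, and *Marcksl1*, the member with the highest, all held it. The *Gp2* window lies at chr7:119459243-119459272 (minus strand) and covers the first 30 bases of the RefSeq transcript. The *Marcksl1* window lies at chr4:129513507-129513536 (plus strand, core starting at position -62). The *Pglyrp1* windows lie at chr7:18884565-18884594 and chr7:18884616-18884645 (plus strand, positions -113 and -62), and the *Aif1* window at chr17:35176042-35176071 (minus strand, position -7).
Gp2: acactgggcaggGAGGAAggatactttggg
Marcksl1: cccactgcacgaGAGGAAcccgggcccgac
Pglyrp1, first: ctctggttaaagGAGGAAgctgggtctggg
Pglyrp1, second: tgaagcaagcccTTCCTCtgcccacaccct
Aif1: ataggcacccagTTCCTCcatcctattgtt
The RefSeq promoters of *Tnfaip2* and *Sox8* did not hold these letters. For *Tnfaip2* the upstream part searched (chr12:111442411-111442660) runs past the first GENCODE start at 111442469. The bases before that start were thus searched only in part. A match of 6 letters is a description of the sequence, and binding of SPIB was not measured in these libraries. Members with the core were found both among those with lower and among those with higher values in the libraries labelled *Sirt6* cKO.

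*Gp2* encodes the glycosylphosphatidylinositol-anchored glycoprotein 2, the receptor for type 1 fimbriae through which M cells take up bacteria. The gene lies at chr7:119442537-119459285 on the minus strand of GRCm38, and it shared no 50-base word with another gene's transcripts. *Gp2* was counted 35724 and 34993 times in the WT libraries and 16676 and 20420 times in the libraries labelled *Sirt6* cKO. After TMM normalization these counts were 546 and 550 CPM in WT and 276 and 318 CPM in cKO, so that both cKO libraries lay below both WT libraries. The mean was 548 ± 2.91 CPM in WT and 297 ± 29.7 CPM in cKO (SD, n = 2). On the TPM scale, which takes gene length into account, *Gp2* had 598 and 620 TPM in WT against 304 and 353 TPM in cKO. It ranked 206 and 187 among all genes by TPM in the WT libraries and 489 and 433 in the cKO libraries. The log2 fold change was -0.88 (SE 0.16, adjusted p = 0.54 by edgeR's quasi-likelihood test with Benjamini-Hochberg adjustment), and the unadjusted p was under 0.05. By DESeq2 it was -0.89 (SE 0.21) with an adjusted p = 0.00347, a threshold that 1.88% of the genes tested by DESeq2 passed. The call for *Gp2* after adjustment therefore depended on the tool, while its direction held under every alternative listed at the end, also with any single library left out (log2 fold change between -1.0 and -0.78). Since the groups of *Gp2* did not overlap, leaving out a library could hardly turn this direction.

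**Figure D1:**
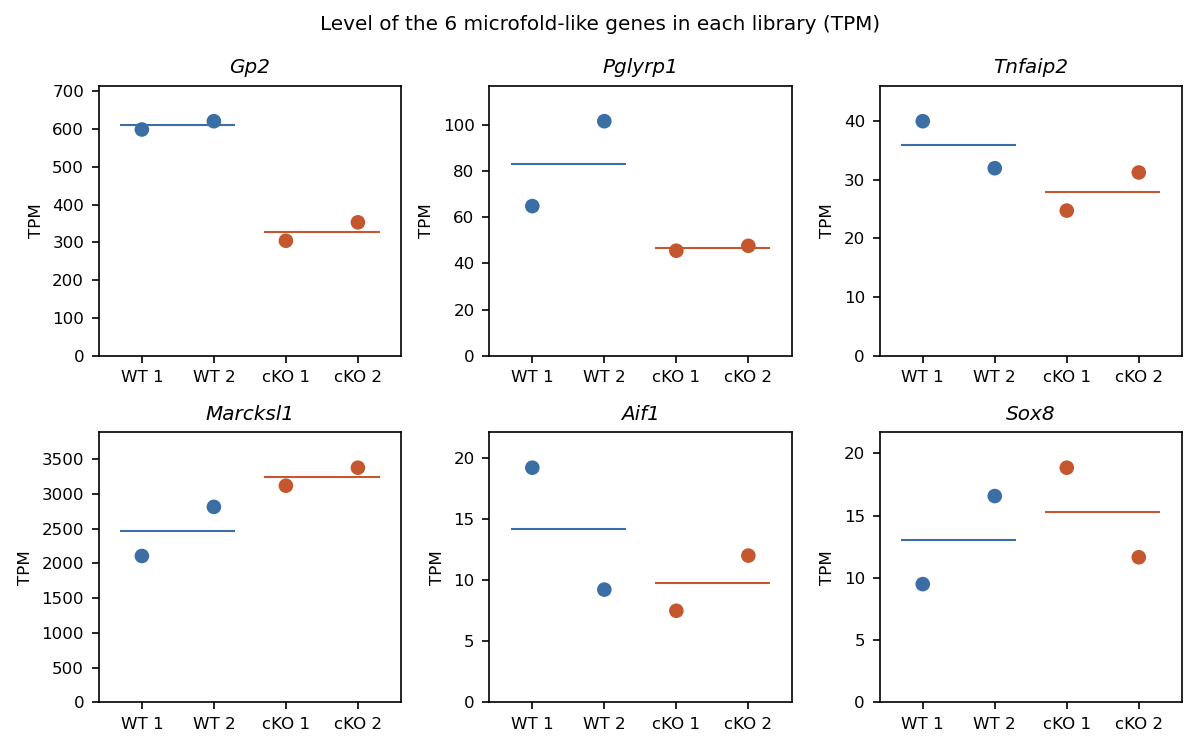
TPM (y axis, from 0) of each of the 6 microfold-like genes in the 4 libraries (x axis), with points for libraries and a line for the mean of each group of 2. Gp2 lies between 598 and 620 TPM in WT and between 304 and 353 TPM in the libraries labelled Sirt6 cKO, whereas the points of Aif1 and Sox8 overlap between the groups.

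*Pglyrp1* encodes peptidoglycan recognition protein 1, a secreted antibacterial protein that M cells express and that neutrophils store in their granules. In GENCODE M21 the gene lies at chr7:18871331-18890459 on the plus strand. The RefSeq promoter searched above (upstream part chr7:18884440-18884689) falls within this span, since the RefSeq start lies downstream of the first GENCODE start. *Pglyrp1* was counted 1333 and 1974 times in WT and 859 and 949 times in cKO, or 20.4 and 31.0 CPM against 14.2 and 14.8 CPM. The cKO libraries were close to each other and below both WT libraries, which differed between themselves by more than WT 1 differed from the cKO libraries. The level was 83.2 ± 26 TPM in WT and 46.6 ± 1.5 TPM in cKO (SD, n = 2). The log2 fold change was -0.82 (SE 0.33, adjusted p = 0.58 by edgeR's quasi-likelihood test with Benjamini-Hochberg adjustment) and missed the unadjusted threshold narrowly. Without WT 2, the highest library, it was -0.49, and without WT 1 it was -1.12. It passed the unadjusted threshold under both other scalings, without the filter on low counts, by limma and by DESeq2, where the adjusted p was 0.351.

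Since *Pglyrp1* is also a gene of neutrophils, their markers were read beside it. Of 12 neutrophil markers 11 were matched by symbol and all 11 had counts in every library. Their summed level was 2165 and 1569 TPM in WT and 1989 and 1519 TPM in cKO, so that these sums overlapped between the groups while *Pglyrp1* did not. The library with the most *Pglyrp1*, WT 2, had a lower neutrophil sum than WT 1 and cKO 1. That sum was carried mostly by *Ngp* and *Ltf*, and the markers of the list did not share an order. *Mmp8*, *Retnlg* and *Mmp9* were, like *Pglyrp1*, highest in WT 2, and the other markers were highest in WT 1 or cKO 1. Of the 11 markers 1, *Mmp8*, passed the unadjusted p on the lower side, against 3.32% of all genes tested. *Mmp8* was at 16.2 and 19.6 TPM in WT and 8.46 and 8.51 TPM in cKO. The part of neutrophil RNA in the values of *Pglyrp1* was not tested.

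*Tnfaip2* encodes a protein also called M-Sec, which shapes the membrane tubes that connect neighbouring cells. The gene lies at chr12:111442469-111455018 on the plus strand, and its exons overlap those of the antisense gene *Gm40578* over 314 bases, so that without strand information a part of its reads could come from there. *Tnfaip2* was counted 4302 and 3251 times in WT and 2445 and 3258 times in cKO. The corresponding values were 65.7 and 51.1 CPM in WT and 40.5 and 50.8 CPM in cKO. The groups did not overlap, but the lower WT library and the higher cKO library were almost equal, and the gap between them was far smaller than the spread within either group. The log2 fold change of -0.36 (SE 0.26, adjusted p = 0.76 by edgeR's quasi-likelihood test with Benjamini-Hochberg adjustment) did not pass the test. It was -0.19 without WT 1 and -0.20 without cKO 1.

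*Marcksl1* encodes a MARCKS-like protein that binds actin and membranes and is one of the first genes seen in immature M cells of the gut. The gene lies at chr4:129513581-129515985 on the plus strand, and 1.61% of its 50-base words were shared with *Akr1c19*, *Gm9089* and the pseudogene *Marcksl1-ps4*. *Marcksl1* was by far the most abundant of the 6, with 2106 and 2812 TPM in WT and 3116 and 3375 TPM in cKO. It ranked 35 and 26 among all genes in the WT libraries and 20 and 18 in the cKO libraries. On the CPM scale, both cKO libraries (2290.2 and 2464 CPM) lay above both WT libraries (1555 and 2018 CPM). The log2 fold change was 0.41 (SE 0.17, adjusted p = 0.60 by edgeR's quasi-likelihood test with Benjamini-Hochberg adjustment). It missed the unadjusted threshold, and the size depended on the WT libraries, since it was 0.21 without WT 1 and 0.61 without WT 2. *Gp2* and *Marcksl1*, which mark late and early stages in the gut, thus had opposite signs in the same libraries. Of their fold changes only that of *Gp2* passed the unadjusted p. *Tnfaip2*, like *Marcksl1* a gene of immature M cells, had the sign of *Gp2* (-0.36), so the genes of immature M cells did not share a direction.

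*Sox8* encodes the transcription factor that works beside SPIB in the maturation of gut M cells. The gene lies at chr17:25565892-25570686 on the minus strand, and 9.49% of its 50-base words were shared with the antisense gene *2810468N07Rik*, whose exons overlap its own over 329 bases. *Sox8* was low in every library, with 9.50 and 16.6 TPM in WT and 18.8 and 11.7 TPM in cKO. The groups overlapped, since the second WT library lay between the cKO libraries and the second cKO library lay between the WT libraries. The log2 fold change was 0.24 (SE 0.41, adjusted p = 0.92 by edgeR's quasi-likelihood test with Benjamini-Hochberg adjustment). Its sign turned when WT 1 (-0.12) or cKO 1 (-0.15) was left out, so no direction can be given for *Sox8*.

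*Aif1* encodes IBA1, an actin-binding protein of macrophages that is also made by M cells. The gene lies at chr17:35170991-35176068 on the minus strand. *Aif1* was counted 508 and 231 times in WT and 182 and 308 times in cKO, or 19.2 and 9.23 TPM against 7.50 and 12 TPM. WT 1 stood above the other libraries, and WT 2 lay between the cKO libraries. The log2 fold change of -0.54 (SE 0.59, adjusted p = 0.86 by edgeR's quasi-likelihood test with Benjamini-Hochberg adjustment) did not pass the test and became 0.08 without WT 1.

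Macrophage markers were read beside *Aif1* in the same libraries. All 12 markers of the list had fold changes below 0, and 6 of the 12 passed the unadjusted p on the lower side, against 3.32% of all genes tested. By DESeq2, the tool by which *Gp2* was called, 5 of the 12 passed the adjusted p, against 1.88% of the genes tested by DESeq2. They were *Lyz2*, *Cd68* and the complement genes *C1qa*, *C1qb* and *C1qc*. The summed level of the 12 markers was 11497 and 6799 TPM in WT and 4193 and 4516 TPM in cKO, with the highest value in WT 1, as for *Aif1*. The other libraries did not follow the same order. *Aif1* was lower in WT 2 (9.23 TPM) than in cKO 2 (12 TPM), while the macrophage sum was higher in WT 2. That sum was carried mostly by *Lyz2* (9532 and 5941 TPM in WT, 3664 and 3955 TPM in cKO). *Mertk*, *Cx3cr1* and *Mrc1* were, like *Aif1*, lower in WT 2 than in cKO 2, and the other markers of the list were higher in WT 2. None of the 12 markers was at 0, and the lowest, *Fcgr1*, had between 27 and 46 counts. The sort had removed CD45+ cells, yet *Ptprc*, the gene for CD45, was at 145 and 106 TPM in WT and at 177 and 129 TPM in cKO. The part of macrophage RNA in the values of *Aif1*, or in the lower *Gp2*, was not tested.

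**Figure D2:**
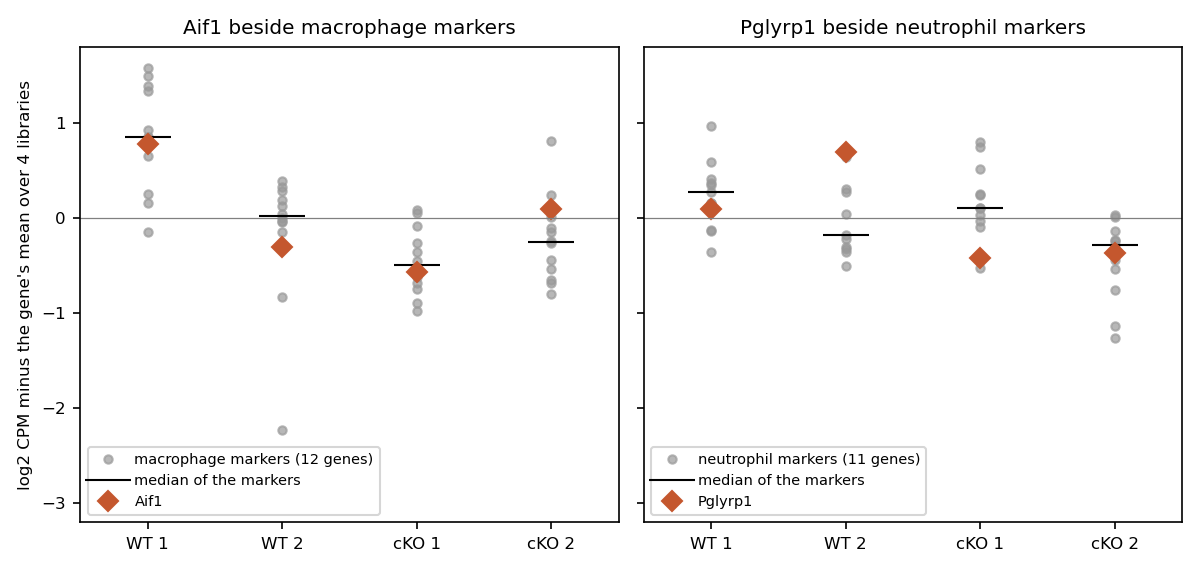
Log2 CPM minus the gene's mean over the 4 libraries (y axis) in each library (x axis), for Aif1 beside 12 macrophage markers (left) and Pglyrp1 beside 11 neutrophil markers (right), with grey points for markers, a line for their median and a diamond for the member. Aif1 and the median of the macrophage markers (0.85) are highest in WT 1, while Pglyrp1 is highest in WT 2, where the median of the neutrophil markers is -0.18.

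Markers of other epithelial populations were read in the same way. Of the 6 tuft cell markers, 4 passed the unadjusted p on the lower side, against 3.32% of all genes tested. *Dclk1* (log2 fold change 0.36) and *Pou2f3* (0.24) of the same list lay above 0 and did not pass. The summed level of the tuft cell list was 703 and 755 TPM in WT and 373 and 343 TPM in cKO. Of the 6 cTEC markers, 2 passed on the higher side (*Ly75* and *Foxn1*), against 5.27% of all genes tested. *Foxn1* is not confined to cTECs, since the *Foxn1*-Cre of these mice is driven in thymic epithelial cells, mTECs included. *Psmb11* (-0.25), *Prss16* (-0.41) and *Ccl25* (-0.10) had fold changes below 0, and the median of the cTEC list was 0.07. Of the 10 mTEC markers, 3 passed on the higher side (*Epcam*, *Cd80* and *Aire*), against the same 5.27%, while *Krt8*, *Fezf2* and *Cd74* had fold changes below 0. The summed level of the 10 mTEC markers was 37005 and 42422 TPM in WT and 42521 and 37111 TPM in cKO, a sum carried mostly by *Cd74* and *H2-Aa*, MHC class II genes that leukocytes also express, and it does not show the higher values of the 3 markers. By DESeq2, 2 tuft cell markers (*Avil* and *Gnb3*), 1 mTEC marker (*Cd80*) and 1 cTEC marker (*Foxn1*) passed the adjusted p, against 1.88% of the genes tested by DESeq2. Whether shares of these populations had a part in the values of *Gp2* or *Marcksl1* was not tested. No leukocyte, dendritic cell, thymocyte, B cell, fibroblast, endothelial or Schwann cell marker passed the unadjusted p by edgeR, and none passed the adjusted p by edgeR or DESeq2.

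Per gene length, the 6 members kept nearly the same order of level in both groups. In WT, *Marcksl1* (2459 ± 499 TPM) was followed by *Gp2* (609 ± 15.5 TPM), *Pglyrp1* (83.2 ± 26 TPM) and *Tnfaip2* (35.9 ± 5.65 TPM), with no overlap between neighbours. *Aif1* (14.2 ± 7.05 TPM) and *Sox8* (13.0 ± 5.0 TPM) came last and overlapped. In cKO, *Sox8* (15.2 ± 5.08 TPM) and *Aif1* (9.76 ± 3.19 TPM) changed places but again overlapped. The summed TPM of the 6 members was 2837 and 3591 in WT and 3517 and 3831 in cKO, a sum made up mostly of *Marcksl1*.

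The 4 libraries give little room to compare patterns, so likeness was taken as the Euclidean distance between log2 CPM values centred on each gene's mean. By this measure the members closest to each other were *Gp2* and *Pglyrp1* (0.44), followed by *Tnfaip2* and *Aif1* (0.58), *Gp2* and *Tnfaip2* (0.60) and *Sox8* and *Marcksl1* (0.66). The farthest pair was *Sox8* and *Aif1* (1.78). *Pglyrp1* was number 545 among all genes tested in closeness to *Gp2* and *Tnfaip2* was number 1500, so that many genes outside the list were more like *Gp2* than any other member was. The 3 genes nearest to *Gp2* were *Gpihbp1* (0.0482), *Hsd11b1* (0.0694) and *Tmem191c* (0.0778). Of these *Hsd11b1*, the enzyme that regenerates active glucocorticoid, was at 97.8 and 104 TPM in WT and 52.3 and 61.1 TPM in cKO, and *Gpihbp1*, which anchors lipoprotein lipase, was at 12 and 11.9 TPM in WT and 5.95 and 6.90 TPM in cKO. The lower cKO values of these genes follow from their choice by likeness to *Gp2* in the same libraries and are no separate result.

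The other genes of the programme, 21 genes from RANK to the chemokines, were read beside the 6 members. At the unadjusted p, 5 of the 21 passed, 4 on the higher and 1 on the lower side, against 5.27% and 3.32% of all genes tested, so that the count on the lower side was near the background. None of the 21 passed the adjusted p by edgeR, whereas 1 (*Spib*) passed it by DESeq2, as did 1.88% of the genes tested by DESeq2. The median log2 fold change of the 21 was 0.05, with 12 above and 9 below 0, and the groups did not overlap in 11 of them, near the 41.9% of all genes tested. Without WT 1 the count at the unadjusted p fell to 1 of 21, again *Spib*, and without cKO 1 it was 3.

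The 9 genes of RANK and NF-κB signalling were listed with earlier results of these data known, so their counts are no separate result. Their median log2 fold change was 0.48. Of the 9, 3 passed the unadjusted p with higher values in cKO, against 5.27% of all genes tested. These were *Relb* (log2 fold change 0.76), the partner of the alternative NF-κB pathway that acts downstream of RANK, *Nfkb2* (0.62), which encodes its p52 subunit, and *Tnfrsf11b* (0.48), which encodes osteoprotegerin, the soluble decoy receptor of RANKL. *Relb* was at 51.3 and 57.1 CPM in WT and 90.0 and 93.9 CPM in cKO. *Tnfrsf11b* was at 800 and 852 CPM in WT and 987 and 1324 CPM in cKO, with the difference between the cKO libraries larger than that between cKO 1 and WT 2. *Tnfsf11*, which encodes RANKL itself, was low and overlapped between the groups (log2 fold change -0.10), and *Tnfrsf11a*, which encodes RANK, had a fold change of 0.32 (SE 0.29) that did not pass. *Traf6* (0.90) and *Map3k14* (0.63), the adaptor and the kinase NIK of the pathway, did not pass, and neither did *Rela* (0.05) or *Nfkb1* (0.00).

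Among the transcription factors, *Spib* and *Gp2* had opposite signs. *Spib* was at 518 and 516 CPM in WT and 1110 and 1154 CPM in cKO (log2 fold change 1.13, SE 0.14, adjusted p = 0.34 by edgeR's quasi-likelihood test, and adjusted p = 4.139e-06 by DESeq2). *Gp2* stood above *Spib* in both WT libraries, with 1.48 and 1.5 times the TPM of *Spib*, and below it in both cKO libraries, with 0.350 and 0.389 times. The same quotient for *Gp2* over *Tnfrsf11b* was 0.972 and 0.919 in WT and 0.399 and 0.343 in cKO. *Esrrg*, an orphan nuclear receptor needed for M cell maturation in the gut, was at 12.2 and 11.7 CPM in WT and 6.96 and 6.44 CPM in cKO (log2 fold change -0.84, SE 0.33, adjusted p = 0.58 by edgeR's quasi-likelihood test). The values of *Esrrg* were thus lower in cKO to about the same extent as those of *Gp2*, but with fewer counts behind them, between 413 and 800 a library. *Atoh8*, a restraint on M cell numbers in the gut, spread from 1.86 to 10.4 CPM within the cKO group and overlapped with WT.

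**Figure D3:**
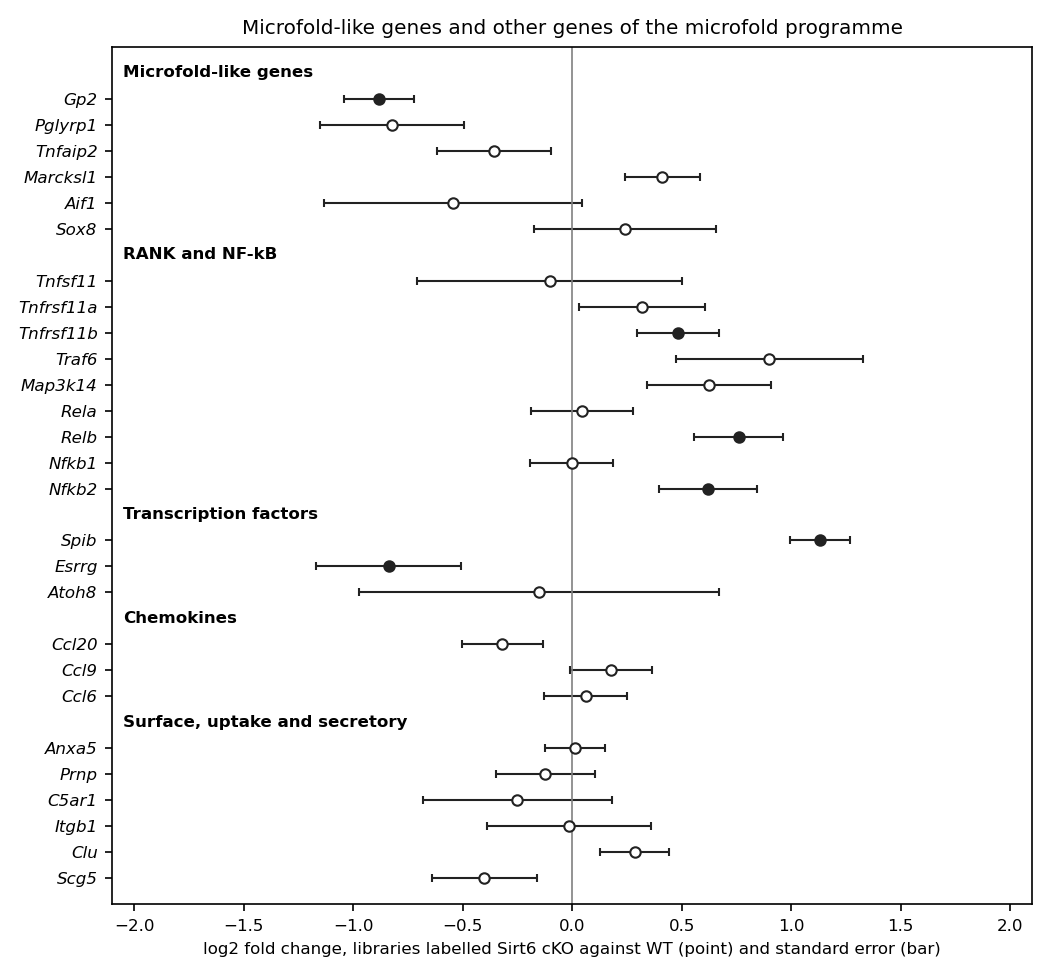
Log2 fold change (x axis, libraries labelled Sirt6 cKO against WT, with its standard error as a bar) of the 6 microfold-like genes and the other 21 genes of the programme, grouped by role. Filled points passed an unadjusted p of 0.05 by edgeR, and Gp2 (-0.88) and Spib (1.13) lie on opposite sides of 0.

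None of the 3 chemokines passed the unadjusted p. *Ccl20*, through which M cell-bearing epithelium draws in lymphocytes, was at 1822 and 2368 TPM in WT and 1528 and 1805 TPM in cKO. The groups of *Ccl20* did not overlap, but the lowest WT library and the highest cKO library were close (log2 fold change -0.32, SE 0.18, adjusted p = 0.69 by edgeR's quasi-likelihood test). *Ccl9* (0.18) and *Ccl6* (0.06), which M cells of the gut also make, overlapped between the groups. *Gp2* over *Ccl20* in TPM was 0.328 and 0.262 in WT and 0.199 and 0.196 in cKO.

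The 6 genes of surface, uptake and secretory proteins gave no call either, and their log2 fold changes ran from -0.40 to 0.29. *Anxa5*, which encodes a phospholipid-binding annexin, was at 819 and 821 TPM in WT and 833 and 812 TPM in cKO, a level above that of *Gp2* with almost no spread. *Prnp* (-0.12), *C5ar1* (-0.25) and *Itgb1* (-0.01), each described as a surface receptor for microbes or their products on M cells, overlapped between the groups. *Clu* (0.29) and *Scg5* (-0.40), secretory genes of M cells, did not overlap but did not pass the test. Among these 6 surface and secretory genes none had a fold change as large as that of *Gp2*.

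**Figure D4:**
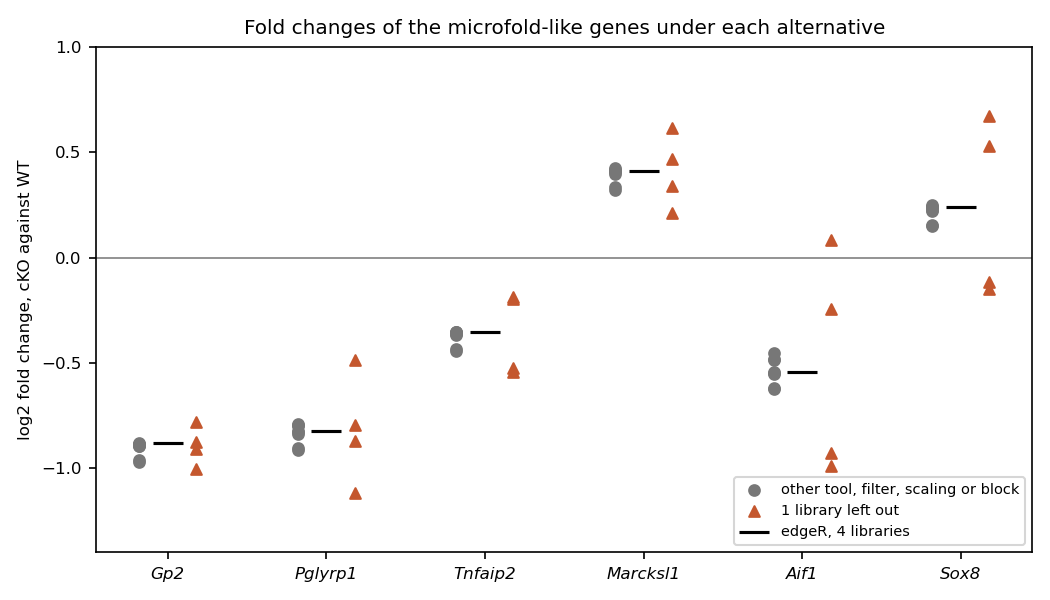
Log2 fold change (y axis, libraries labelled Sirt6 cKO against WT) of the 6 microfold-like genes with all 4 libraries in edgeR (line), under other tools, filters, scalings and the replicate block (grey points) and with 1 library left out (triangles). Gp2 stays between -1.0 and -0.78, whereas Sox8 runs from -0.15 to 0.67 and Aif1 from -0.99 to 0.08.

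With so few libraries, the smallest p that exact permutation of the labels can give for 1 gene is 0.333 (two-sided), so the p-values given here rest on a spread that edgeR or DESeq2 shared across genes.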

How the data were processed

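mTECs were sorted and sequenced in 4 libraries. Per the submitters' processing notes, HISAT2 2.1.0, StringTie 1.3.3 and mm10 were used. The gene annotation and the strand setting are not given in the sources used here. The authors deposited whole-number counts per gene without normalization and, for each library, TPM values, whose total line names no gene (100% of the sum of the genes) and was left out here. Counts were tested with edgeR 4.0.16 in R 4.3.3 (TMM, filterByExpr at its defaults, which ask for 10 counts in a library and 15 in total, glmQLFit and glmQLFTest, two-sided), with Benjamini-Hochberg adjustment over all 18547 genes tested and a threshold of 0.05. The biological coefficient of variation was 0.557, and chi-square per gene was at least 154 between any pair of libraries, so none was a repeat. The alternatives were DESeq2 1.42.0, limma 3.58.1 on log2(TPM + 1) and log2(TPM + 0.1), which understates changes of low genes, no filter, a TPM filter of 0.1, other scalings, the replicate block and each library left out. The procedure was run on simulated counts with less spread than these libraries and with larger fold changes than those of the members. That run therefore gives no error rate for changes of the members' size.

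The text names the 6 members, *Sirt6*, the 21 programme genes and the 3 genes nearest to *Gp2*. Cell type markers are given by list, and the few named there, and *Ptprc*, serve as examples. The members and lists were chosen with earlier results of these data known, and no list was tested as a set. *Adgre1* was matched under its older symbol *Emr1*. Positions, exon overlaps and shared 50-base words were taken from GENCODE M21 (GRCm38, the same assembly as mm10), and promoters from RefSeq on GRCm38.p6. Distances used log2 CPM with a prior count of 2. Figures were drawn with matplotlib 3.10.9 and numpy 2.4.6 in Python 3.11.15, and tables made with pandas 2.3.3.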

Additional observations from a re-analysis of the deposited data

How the results depend on the processing

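*Gp2*, *Pglyrp1*, *Tnfaip2* and *Marcksl1* kept their direction under all 12 alternatives. The groups of these genes did not overlap, as was the case for 41.9% of all genes tested. Leaving out a library or changing the scale could therefore hardly turn their sign. *Gp2* passed the adjusted threshold by DESeq2 alone (-0.89). Of the members, 1 passed the adjusted threshold by DESeq2, and 2 passed the unadjusted p without the filter, under upper quartile normalization or library size alone, with the replicate block, by limma with either pseudocount and by DESeq2. Of the 21 programme genes, 1 passed the adjusted threshold by DESeq2, and 3 passed the unadjusted p with the TPM filter, either other scaling, the replicate block or limma with either pseudocount. Over all genes, the count at an adjusted p of 0.05 was 2 with the TPM filter, 0 with the replicate block (1146 at the unadjusted p), 7 by limma with a pseudocount of 1 and 2 with 0.1, and 357 by DESeq2.

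With each library left out in turn, the log2 fold change ran from -1.0 to -0.78 for *Gp2*, -1.12 to -0.49 for *Pglyrp1*, -0.54 to -0.19 for *Tnfaip2*, 0.21 to 0.61 for *Marcksl1*, -0.15 to 0.67 for *Sox8*, -0.99 to 0.084 for *Aif1* and 0.19 to 0.54 for *Sirt6*. *Sox8* reversed without WT 1 (-0.12) and without cKO 1 (-0.15), and *Aif1* without WT 1 (0.084). Between 1 and 2 members and between 1 and 5 programme genes passed the unadjusted p, 0 genes in all passed the adjusted p, and 735 (without cKO 1) to 1762 passed the unadjusted p. The lone library of a group is then assumed to vary like the other group. The cause of these changes was not tested.

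The sources used here do not say what the replicate numbers stand for, and they are used as names of the libraries. The deviations of WT 1 and cKO 1 from their group means correlated at -0.054 across genes. With 2 libraries per group, this single value cannot settle whether the libraries were paired. With the replicate block, *Gp2* had a log2 fold change of -0.89 (adjusted p = 0.78 by edgeR) and *Marcksl1* of 0.42 with an unadjusted p = 0.03937. The share of calls at the unadjusted p that were higher in cKO was 61.4% with TMM, 48.4% under upper quartile normalization, 46.3% with library size alone and 50.9% by limma with a pseudocount of 1.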
